A study of Gallus gallus with 45 samples.

Results

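The extracellular matrix genes described here are the collagen chains, the laminin chains, the integrin subunits and the named matrix genes FN1, TNC, VCAN, HSPG2, NID1, NID2, AGRN and SPARC. They were chosen by gene symbol alone from the scaled expression table, without use of their values. The symbols matched 58 genes of the 18525 that were tested (24356 genes were counted): 26 collagens, 16 integrins, 9 laminins and 7 of the 8 named matrix genes, with NID2 unmatched. Bulk RNA-seq libraries had been made from wild-type, untreated chick embryos at the midbrain level, from tissue pooled over several embryos for each library. The groups, from early to late, are HH5 and HH6 (Hamburger-Hamilton stages, 4 libraries each), then embryos counted by somite pairs: 1ss to 3ss (the period HH7, 12 libraries), 4ss to 6ss (HH8, 11 libraries), 7ss to 9ss (HH9, 11 libraries) and 10ss (HH10, 3 libraries). This makes 45 libraries over 12 stages, of which the stage named 1ss here carries HH7 in its label. What was dissected changed with age. The youngest embryos (HH5 and HH6) gave tissue flanking the streak, embryos up to 7ss gave the rim of the neural plate or the raised edge of the folds, and older embryos gave the roof region of the tube with its neural crest, migrating cells included. Stage and type of piece therefore cannot be told apart at these borders, and each value is an average over every cell in the piece.

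The matrix around an epithelium such as the neural plate border is built in layers. Laminins and collagen IV form the sheets of the basement membrane, which nidogen, perlecan (HSPG2) and agrin link together, while fibronectin, tenascin-C, versican and the fibrillar collagens fill the space into which neural crest cells move. Integrins are pairs of an alpha and a beta subunit in the cell membrane that bind these proteins and connect them to actin. Neural crest cells leave the dorsal neural tube by crossing its basement membrane and then migrate over a matrix rich in fibronectin and hyaluronan.

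The libraries held 15.4 to 30.5 M counted reads (median 22.9 M). Values are CPM, read counts over library sizes scaled by TMM, and they do not correct for gene length, so levels were compared between stages and not between genes. The list of 12 neural crest markers gave summed levels of 1160 to 1550 CPM at HH10, against 242 to 561 CPM at HH5, and in no period was any of the 12 at or below 3 reads in all libraries. The markers of other tissues moved with stage as well. The 9 endoderm markers summed to 51.2 to 62.8 CPM at HH10 (SOX17 at or below 3 reads in all 3 libraries), against 783 to 1440 CPM at HH5. The 11 mesoderm markers summed to 37.4 to 115 CPM at HH10 (TBX6 and MESP2 at or below 3 reads) and 151 to 347 CPM at HH5, and the 10 surface ectoderm and placode markers to 415 to 467 CPM at HH10 and 1390 to 2000 CPM at HH5. The part of these shifts in the values below was not tested, and fewer cells of a type and less RNA per cell cannot be told apart in bulk tissue. HH6 replicate 1 stood apart from the other HH6 libraries in its endoderm sum (692 CPM was the highest at HH6). It also did so in its blood, vessel and heart markers (218 CPM, against 62.2 to 96.1 CPM). Its surface ectoderm and placode sum was apart as well (1620 CPM, against 1040 to 1130 CPM) and lay within the range of HH5. A high endoderm sum, 694 CPM, was found in 8ss replicate 2 too.

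Over the 12 stages, 37 of the 58 matrix genes changed in level (edgeR quasi-likelihood F-test over all stages, Benjamini-Hochberg adjusted p below 0.05), which is 63.8%, while 43.7% of all tested genes passed the same test. Among genes with a mean of at least 1 CPM, 36 of 48 matrix genes passed and 56.0% of all genes did. The 37 comprised 16 of 26 collagens, 10 of 16 integrins, 5 of 9 laminins and 6 of the 7 other matrix genes. Their stage means were over 4-fold apart for 19 genes and within 2-fold for 3. Each gene was assigned to the period that holds the single stage with its highest mean, whatever the mean of the whole period. This was HH5 for 10 of the 37, HH6 for 4, HH7 for 2, HH8 for 4, HH9 for 8 and HH10 for 9. At HH10 this is 24.3% of the matrix genes that changed, against 12.8% of all genes that changed, and at HH7 it is 5.41% against 13.1%. The shares are 27% against 21.5% at HH5 and 10.8% against 10.2% at HH6. At HH8 they are 10.8% against 17.1%, and at HH9 21.6% against 25.4%. The share at HH10 rests on 1 stage of 3 libraries. COL1A1 is among its 9 genes with 1 library at 74.0 CPM, beside 29.1 and 19.8 CPM, and had a mean of 32.7 CPM at HH6. COL8A1 and COL12A1, also among the 9, did not pass without the libraries numbered 4 that are described below (edgeR adjusted p of 0.057 and 0.11).

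**Figure D1:**
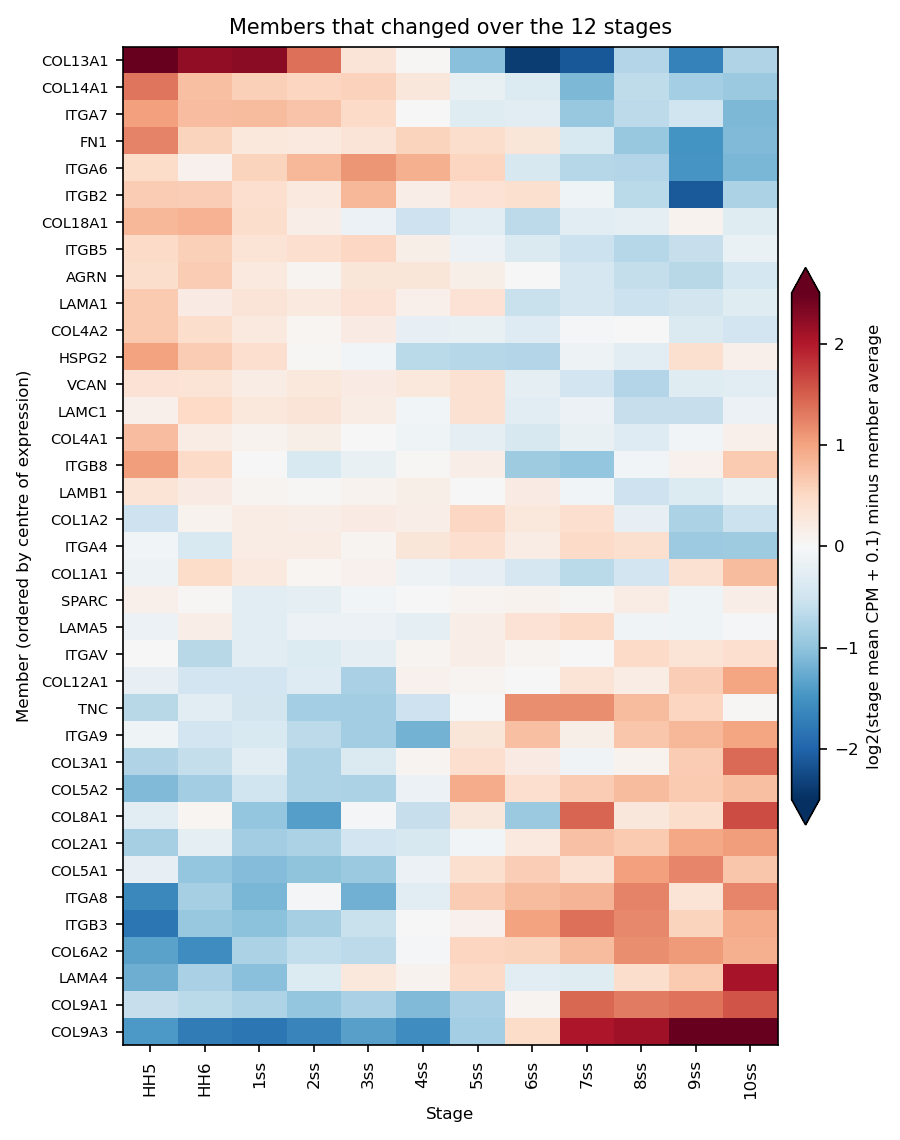
Stage means of the 37 matrix genes that changed over the 12 stages (columns, HH5 to 10ss). Colour gives log2(stage mean CPM + 0.1) minus the average of that gene over the stages, rows are ordered by the centre of the profile, and COL13A1, high early, is at the top while COL9A3, high late, is at the bottom.

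For the comparison of periods, all 45 libraries entered 1 fit, and a call required that the adjusted p was below 0.05 and the log2 fold change beyond 0.75 in either direction. Neighbouring comparisons share the libraries of the middle period. At HH10 against HH5, 9 matrix genes were higher and 9 lower, 15.5% of the 58 in each direction, while 7.2% of all genes were higher and 9.8% lower. At HH8 against HH7, 7 were higher (12.1%) and 3 lower (5.17%), while 4.5% of all genes were higher and 2.83% lower. At HH9 against HH8, 4 were higher (6.9%) and 5 lower (8.62%), while 3.5% of all genes were higher and 3.57% lower. A mean of at least 1 CPM was reached by 48 of the 58 matrix genes and by 11740 of all 18525 genes. The shares called among genes of that level are not given for these comparisons, so level may enter the differences between shares. The median log2 fold change of the 58 was -0.11 at HH10 against HH5, 0.18 at HH8 against HH7 and 0.07 at HH9 against HH8, beside -0.07, 0.02 and -0.01 over all genes.

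None of the 58 was called in the other 3 comparisons, either by edgeR or by DESeq2. Over all genes, 0.626% were called higher and 0.669% lower for HH6 against HH5. The shares were 0.103% and 0.918% for HH7 against HH6, and 0.194% and 0.135% for HH10 against HH9. At an unadjusted edgeR p below 0.05, without a fold threshold, 5 of the 58 were higher and 3 lower for HH6 against HH5. They were 3 and 5 for HH7 against HH6, and 4 and 3 for HH10 against HH9. The share of all genes at this looser level was not computed, so these counts cannot be set against the called shares. FN1 was called lower at HH6 without HH6 replicate 1 and COL18A1 lower at HH7 without HH6 replicate 3. COL1A1 was called higher at HH10 than at HH9 without 9ss replicate 4. Each was then the only call (1 of 58). Over all genes these fits called 478, 147 and 84 in the same comparisons, beside 240, 189 and 61 with all libraries.

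**Figure D2:**
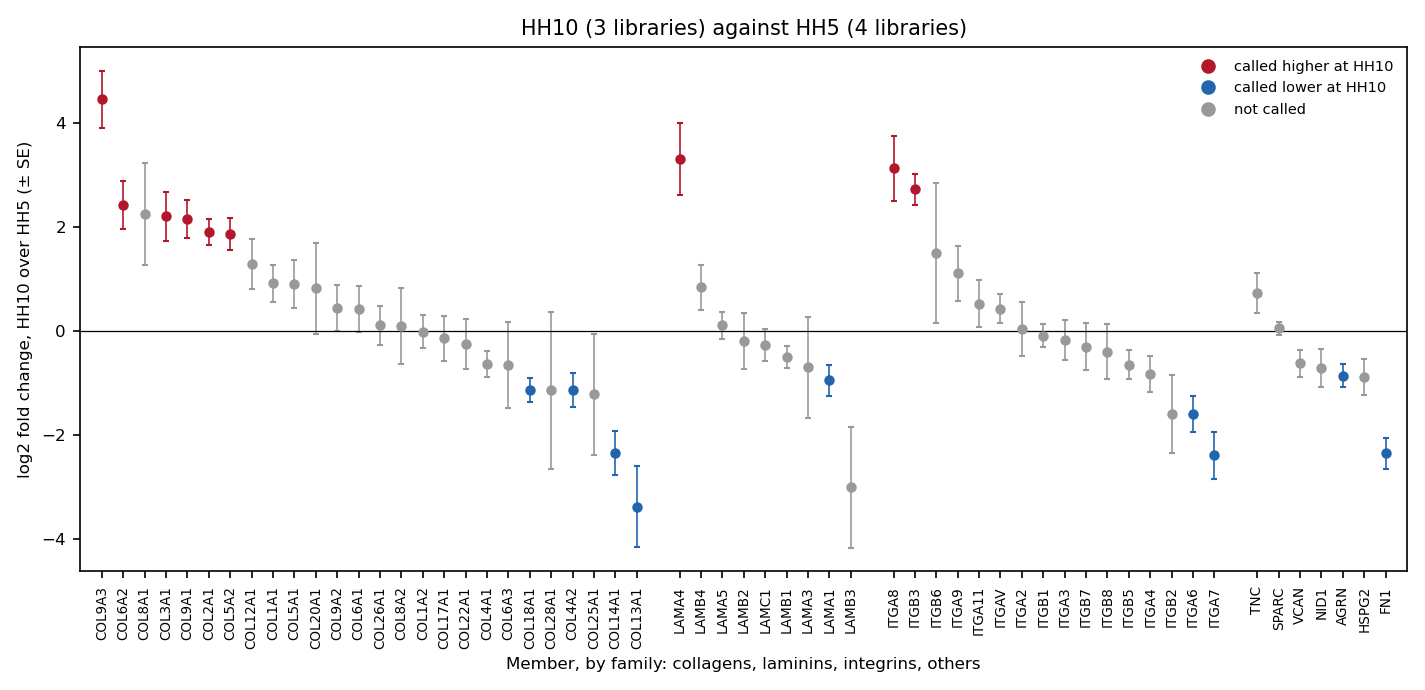
Log2 fold change of HH10 (3 libraries) over HH5 (4 libraries) for the 58 matrix genes, grouped as collagens, laminins, integrins and others, with bars of 1 SE. Red points were called higher at HH10, blue points lower, and grey points were not called; COL9A3 is the highest at 4.46 and COL13A1 the lowest at -3.38.

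COL9A3 had the largest increase of the 58 genes at HH10 against HH5, and COL9A1 and COL2A1 were called higher with it. Collagen IX and collagen II are best known from cartilage, where collagen IX coats the surface of collagen II fibrils. COL9A3 was at 24.2, 23.1 and 39.7 CPM in the HH10 libraries, against 1.60, 1.35, 1.43 and 0.870 CPM in the HH5 libraries. No library of one stage reached the range of the other, and the log2 fold change was 4.46 ± 0.55 (SE, 22-fold, edgeR adjusted p = 2.7e-08). Its stage means were 1.19 CPM at 4ss, 2.01 at 5ss, 5.15 at 6ss, 15.3 at 7ss, 16.4 at 8ss, 27.8 at 9ss and 29.0 at 10ss. COL9A3 was thus near 1 CPM until 4ss, and each later stage mean was above the one before. It was called higher at HH8 against HH7 (1.14 ± 0.30, adjusted p = 0.0065, groups overlapping) and at HH9 against HH8, with 12.1 to 35.9 CPM (median 17.7) in the HH9 libraries and 0.405 to 6.84 CPM (median 1.59) in the HH8 libraries (2.98 ± 0.30, adjusted p = 9.3e-10).

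COL9A1, the partner chain, was low until 5ss and at its late level by 7ss. Its values at 6ss were 16.9, 22.4 and 19.5 CPM, at 7ss 54.6, 52.6, 53.7 and 42.7 CPM, and at 10ss 51.4, 53.7 and 63.2 CPM, while the stage means from HH5 to 5ss lay between 8.66 and 12.6 CPM. The HH9 libraries held 27.6 to 71.0 CPM (median 52.6) and the HH8 libraries 6.58 to 22.4 CPM (median 11.1), without overlap (log2 fold change 1.98 ± 0.21, edgeR adjusted p = 4.2e-09). The largest single step of COL9A1, at 7ss against 6ss, was 1.38 ± 0.34 and did not pass the adjustment over all genes and steps (adjusted p = 0.076), nor did that of COL9A3 (1.57 ± 0.39, adjusted p = 0.080). Both passed in DESeq2. At 8ss and 9ss the libraries of COL9A1 spread widely (70.7, 40.9 and 27.6 CPM, then 71.0, 29.2, 30.8 and 62.1 CPM), and HH6 replicate 1 held 22.7 CPM beside 7.53 to 9.22 CPM in the other HH6 libraries.

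COL2A1, the major fibrillar collagen of cartilage and notochord, was at 32.4, 20.5 and 27.8 CPM at HH10, against 5.72, 7.06, 7.21 and 8.93 CPM at HH5. The groups did not overlap (1.90 ± 0.25, adjusted p = 2e-07 in edgeR). From 1ss on its stage means were 7.00, 7.46, 9.27, 9.83, 12.3, 15.4, 21.5, 20.5, 25.5 and 26.9 CPM, a gradual course with a single exception at 8ss. The 6 markers of notochord and midline summed to 24.0 to 30.8 CPM at HH10 (SHH at or below 3 reads in all 3 libraries) and 39.1 to 80.4 CPM at HH5. COL9A2, the remaining collagen IX chain, was not called in any comparison, with 23.3, 18.8 and 15 CPM at HH10 against 17.5, 14.5, 16.5 and 7.80 CPM at HH5 (0.44 ± 0.44, edgeR adjusted p = 0.52). Its test over the 12 stages gave an adjusted p of 0.077, and 0.015 when the libraries numbered 4 were left out.

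The libraries numbered 4 in the titles carried a difference that was not one of stage. They exist at 9 stages, from HH5 to 5ss, at 7ss and at 9ss. At 10ss, replicate 3 of the titles carries the number 4 in its description. It is not counted as numbered 4 here, and it stayed in the fits without the libraries numbered 4. In the 8 of these stages up to 7ss, COL5A1, COL9A2 and ITGA3 had their lowest value in the library numbered 4 every time, and LAMC1 its highest every time. At 9ss LAMC1 was again highest in it (28.6 CPM, beside 9.71, 20.0 and 22.5 CPM), but COL5A1 (405 CPM, beside 607, 348 and 375 CPM), COL9A2 (29.3 CPM, beside 40.9, 26.0 and 21.8 CPM) and ITGA3 (3.48 CPM, beside 4.77, 2.40 and 3.29 CPM) were not lowest. Of the matrix genes with a mean of at least 1 CPM, 6.25% were lowest in all 8 stages up to 7ss and 2.08% highest, against 3.47% and 0.894% of all 11740 such genes. For COL5A1 the library numbered 4 held 54.8 CPM at HH5, beside 199, 191 and 201 CPM in the others, and 27.2 CPM at 2ss, beside 105, 135 and 103 CPM. COL4A2, LAMA5, COL12A1, COL8A1 and LAMB1 passed over the 12 stages with these libraries and not without them, where 34 of the 58 genes passed (edgeR adjusted p of 0.14, 0.11, 0.11, 0.057 and, at the threshold, 0.05). Of all genes, 7321 passed without these libraries, beside 8088 with them. COL9A2 and NID1 did not pass with all libraries and passed without these (0.015 and 0.023). The libraries had been sequenced on more than 1 run, and the run of each library is not given in the sources used here.

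**Figure D3:**
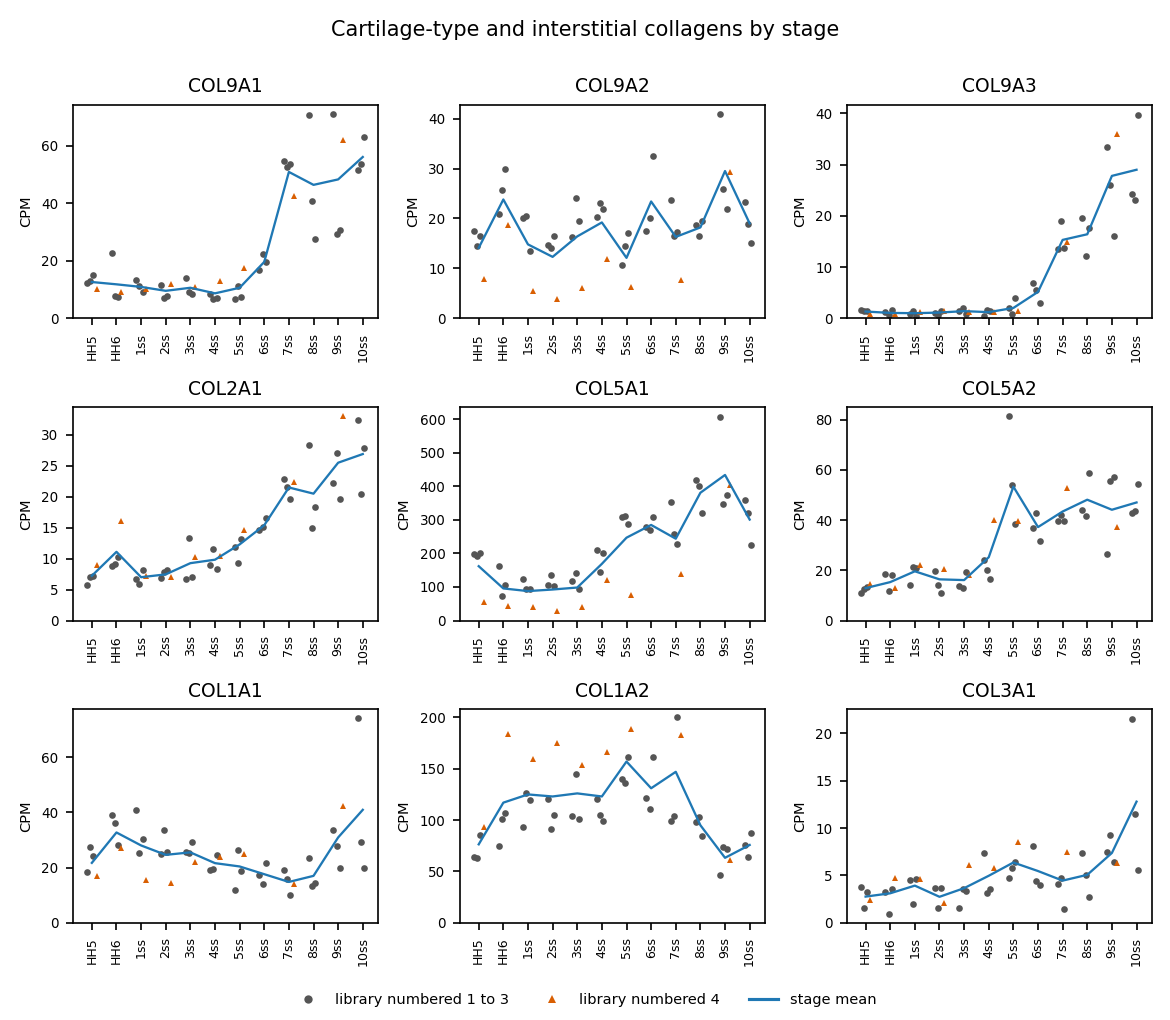
CPM of 9 collagen chains in each library by stage (HH5 to 10ss). Grey circles are libraries numbered 1 to 3, orange triangles libraries numbered 4 and the blue line is the stage mean; COL9A1 and COL9A3 increase at 6ss and 7ss, and COL5A1 and COL9A2 are lowest in the library numbered 4 from HH5 to 7ss.

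Collagen V, which sets the diameter of collagen I fibrils and is expressed by many mesenchymal cells, was called higher at HH8 than at HH7 in both of its measured chains. COL5A1 had 76.3 to 313 CPM (median 269) in the HH8 libraries and 27.2 to 143 CPM (median 98.9) in the HH7 libraries, for a log2 fold change of 1.30 ± 0.25 (edgeR adjusted p = 0.00027). The HH8 libraries below the HH7 maximum included the one numbered 4 at 5ss, and without the libraries numbered 4 the change was 1.22 (adjusted p = 1.5e-06). Its stage mean was 162 ± 71.4 CPM at HH5, 87.8 ± 35.8 CPM at 1ss, the lowest, and 434 ± 118 CPM at 9ss, the highest (SD, n = 4 each). At HH10 it was at 359, 321 and 225 CPM, against 199, 191, 201 and 54.8 CPM at HH5, without overlap but short of the threshold (0.90 ± 0.46, adjusted p = 0.16), which it passed with a replicate block on the description numbers.

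COL5A2 was at 16.7 to 81.4 CPM (median 38.4) at HH8 and 11.1 to 22.0 CPM (median 18.7) at HH7 (1.16 ± 0.17, edgeR adjusted p = 2.9e-06). Most of this lay between 4ss (23.9, 20.2, 16.7 and 40.0 CPM) and 5ss (81.4, 53.8, 38.4 and 39.5 CPM). The step at 5ss was called (1.08 ± 0.25, adjusted p = 0.047), and the call was lost in 28 of 45 fits that each left out 1 library, where the change was 0.80 to 1.08 (0.80 without 5ss replicate 1, adjusted p = 0.21). At HH10 its libraries held 43.0, 43.7 and 54.3 CPM, against 11, 12.7, 13.4 and 14.5 CPM at HH5 (1.87 ± 0.31, adjusted p = 1e-05). COL3A1, a fibrillar collagen of loose connective tissue that lies next to COL5A2 in the chicken RefSeq annotation (assembly GRCg7b), had 21.5, 11.5 and 5.60 CPM at HH10 and 3.78, 1.61, 3.24 and 2.46 CPM at HH5 (2.21 ± 0.47, adjusted p = 4e-04). Without 10ss replicate 1, the highest, its change was 1.62 (adjusted p = 0.017).

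The chains of collagen I, the main fibrillar collagen of mesenchyme, had their highest and lowest means at different stages. COL1A1 had a stage mean of 32.7 ± 5.96 CPM at HH6, 14.8 ± 3.80 CPM at 7ss and 40.9 ± 29.0 CPM at 10ss (SD), where replicate 1 held 74.0 CPM and the others 29.1 and 19.8 CPM. COL1A2 was highest at 5ss (157 ± 24.1 CPM) and lowest at 9ss (63.3 ± 12.5 CPM). Both passed the test over the 12 stages (adjusted p of 0.0063 for COL1A1 and 0.00025 for COL1A2, edgeR), and neither was called at HH10 against HH5, HH9 against HH8 or HH8 against HH7. COL1A1 was at 0.92 ± 0.36 at HH10 against HH5 (adjusted p = 0.058), and was called higher there in DESeq2 and with the 12 stages as groups. COL1A2 was highest in the library numbered 4 in 7 of 8 stages.

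Of the collagen VI chains, which form beaded filaments near the cell surface, COL6A2 was called higher and COL6A1, its neighbour in the annotation, was not. COL6A1 did not pass over the 12 stages (edgeR adjusted p = 0.23), nor did COL6A3 (adjusted p = 0.76), which had a mean of 0.665 CPM. COL6A2 had 3.2, 4.22 and 1.66 CPM at HH10, against 0.572, 0.610, 0.462 and 0.606 CPM at HH5 (2.42 ± 0.46, edgeR adjusted p = 9.8e-05), and 1.07 to 4.07 CPM at HH8 against 0.324 to 1.5 CPM at HH7 (1.11 ± 0.25, adjusted p = 0.0015). COL6A1 differed by 0.43 ± 0.44 between HH10 and HH5 (adjusted p = 0.53). It was called lower at HH9 than at HH8 (-0.75 ± 0.25, adjusted p = 0.029) at the edge of the fold threshold, and 8 of the 45 fits without 1 library lost that call, with the change nearest to 0 at -0.66 (without 5ss replicate 4).

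COL13A1, COL14A1 and COL18A1, which are not fibrillar, were high early and called lower later, as was COL4A2 (given with the basement membrane). COL13A1, a transmembrane collagen of cell adhesion sites, held 10.2, 12.8, 18.5 and 6.96 CPM at HH5, 12.1, 11.7, 8.19 and 7.99 CPM at 1ss, and 0.622, 0.0502 and 0.243 CPM at 6ss. It was lower at HH8 than at HH7 (-2.34 ± 0.41, edgeR adjusted p = 5.3e-05) and at HH10, with 1.60, 0.335 and 1.55 CPM, than at HH5 (-3.38 ± 0.78, adjusted p = 0.0012). COL14A1, which decorates collagen I fibrils, had 1.39, 1.42 and 0.777 CPM at HH10 and 4.92, 5.53, 5.86 and 8.40 CPM at HH5 (-2.35 ± 0.42, adjusted p = 3.6e-05), and was called lower at HH9 than at HH8 too (-0.89 ± 0.23, adjusted p = 0.0043). COL18A1, a basement membrane collagen that carries heparan sulfate, had 9.47, 10.9 and 10.9 CPM at HH10 and 21.1, 24.4, 21.4 and 24.8 CPM at HH5 (-1.14 ± 0.23, adjusted p = 0.00026). Most of its difference was in place by 4ss (8.94 ± 1.58 CPM, SD, n = 4).

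In the basement membrane, LAMA1 and COL4A2 were the members called lower at HH10 than at HH5 beside COL18A1 and AGRN. LAMA1, the alpha chain of laminin-111 in early embryonic epithelia, was at 211, 112 and 184 CPM at HH10, against 295, 259, 300 and 451 CPM at HH5 (-0.95 ± 0.30, edgeR adjusted p = 0.018). The call did not hold without HH5 replicate 4 (-0.74, adjusted p = 0.082), without 10ss replicate 2 (-0.72, adjusted p = 0.14) or without the libraries numbered 4 (-0.74, adjusted p = 0.033), and LAMA1 was highest in the library numbered 4 in 7 of 8 stages. Its stage means were 228 to 326 CPM from HH5 to 5ss and 142 to 169 CPM from 6ss on. LAMB1 and LAMC1, the chains that complete this laminin, were not called in a comparison. LAMB1 had 232, 207 and 141 CPM at HH10 and 249, 291, 255 and 301 CPM at HH5, without overlap (-0.50 ± 0.21, adjusted p = 0.087). LAMC1 had 33.4, 21.4 and 27.3 CPM at HH10 and 26.9, 31.3, 30.7 and 43.4 CPM at HH5 (-0.27 ± 0.31, adjusted p = 0.59).

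LAMA4, the laminin alpha chain of blood vessel walls and mesenchyme, went the other way. It was at 60.0, 19.4 and 17.4 CPM at HH10, against 3.36, 3.40, 3.12 and 3.10 CPM at HH5 (3.31 ± 0.70, edgeR adjusted p = 4e-04, 2.5 without 10ss replicate 1, adjusted p = 0.011). The 11 blood, vessel and heart markers summed to 251, 129 and 131 CPM in the same HH10 libraries and to 133 to 204 CPM at HH5. HH6 replicate 1, which was high in these markers, held 11.1 CPM of LAMA4 beside 1.73 to 2.5 CPM in the other HH6 libraries. At 5ss the libraries with 15.5 and 18.8 CPM of LAMA4 had sums of 95.2 and 76.6 CPM for these markers. Those with 6.29 and 2.63 CPM had sums of 39.3 and 40.1 CPM. By period from HH5 to HH10, mean LAMA4 was 3.25, 4.31, 6.33, 8.6, 9.57 and 32.3 CPM. The median sum of these markers was 172, 80.1, 60.3, 43.7, 61.3 and 131 CPM. From HH5 to HH8 LAMA4 thus rose while the marker sum fell. The part of vessel or heart cells in the LAMA4 level was not tested. The HH10 library with the highest sum, replicate 1, also had the highest LAMA4, COL3A1, COL1A1 and ITGA8 of the 3. These genes were not alone in that. The summed collagens, laminins, integrins and other matrix genes were each highest in this library too (766, 557, 484 and 799 CPM). Its mesoderm sum was also the highest (115 CPM, beside 53.3 and 37.4 CPM). LAMA5, the chain of more mature epithelial basement membranes, had stage means of 11.9 to 20.3 CPM, passed over the 12 stages (adjusted p = 0.039) and differed by 0.11 ± 0.26 between HH10 and HH5. LAMB2 had a mean of 0.933 CPM and was not called.

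COL4A1 and COL4A2, neighbours in the annotation that are made as a pair, both had their highest stage mean at HH5. COL4A2 was at 5.15, 9.58 and 5.23 CPM at HH10 and 14.1, 14.0, 13.4 and 17.1 CPM at HH5 (-1.14 ± 0.33, edgeR adjusted p = 0.0082). Its call was lost without 10ss replicate 1 (-0.99, adjusted p = 0.058) or 10ss replicate 3 (-1.0, adjusted p = 0.062). COL4A1 was at 27.8, 23.0 and 17.6 CPM at HH10 and 37.9, 41.3, 35.5 and 27.0 CPM at HH5 (-0.63 ± 0.25, adjusted p = 0.068).

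HSPG2, or perlecan, was lowest in the middle of the series. Its stage means were 6.88 CPM at HH5, 5.29 at HH6, 4.54 at 1ss, 3.45 at 2ss, 3.21 at 3ss, then 2.09, 2.03 and 2.00 CPM at 4ss, 5ss and 6ss, and 3.11, 2.75, 4.52 and 3.70 CPM from 7ss to 10ss. It was called lower at HH8 than at HH7 (-0.87 ± 0.20, edgeR adjusted p = 0.0015) and higher at HH9 than at HH8 (0.79 ± 0.20, adjusted p = 0.0043). The second call rests on the fold threshold, since 5 of the 45 fits without 1 library gave 0.70 to 0.75 with adjusted p of 0.0082 to 0.012. AGRN, agrin, was at 172, 88.3 and 103 CPM at HH10 and 189, 257, 255 and 178 CPM at HH5 (-0.86 ± 0.22, adjusted p = 0.0036), but at -0.67 without 10ss replicate 2 (adjusted p = 0.053). At HH9 it was at 76.6 to 149 CPM (median 115), against 145 to 213 CPM (median 186) at HH8, a difference of -0.72 ± 0.12 under the fold threshold (adjusted p = 3.1e-05). NID1, nidogen, did not pass over the 12 stages (adjusted p = 0.089, and 0.023 without the libraries numbered 4), with stage means between 5.80 CPM at 3ss and 12.2 CPM at 8ss.

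**Figure D4:**
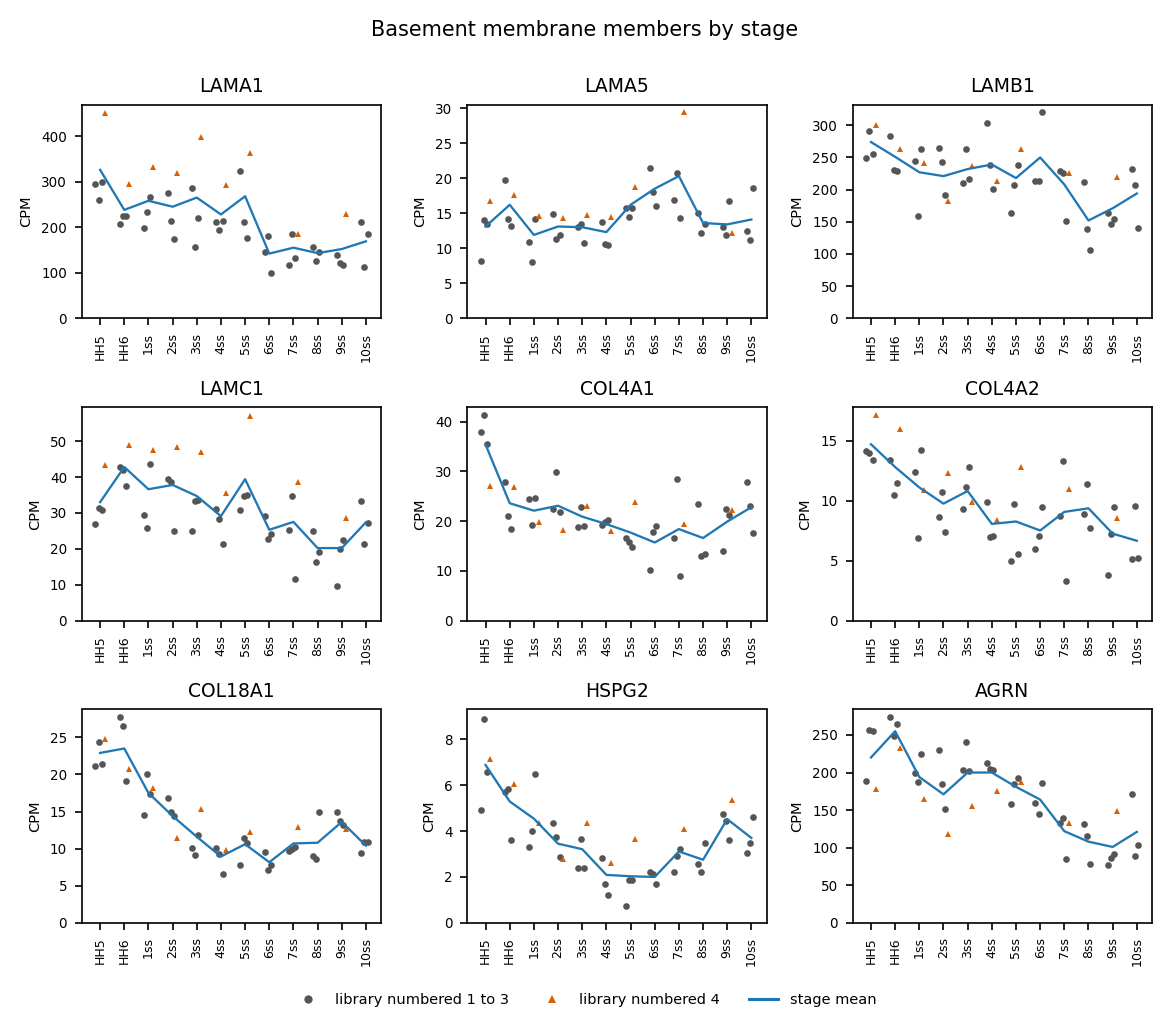
CPM of 9 basement membrane genes in each library by stage. Grey circles are libraries numbered 1 to 3, orange triangles libraries numbered 4 and the blue line is the stage mean; LAMA1 lies at 142 to 169 CPM on average from 6ss on, HSPG2 has its lowest means at 4ss to 6ss, and LAMC1 is highest in the library numbered 4 at HH5 to 7ss.

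FN1, fibronectin, had the lowest log2 fold change at HH10 against HH5 of the 7 named matrix genes. It was at 73.2, 43.1 and 49.8 CPM at HH10, against 247, 282, 297 and 301 CPM at HH5 (-2.35 ± 0.30, edgeR adjusted p = 7e-08). Between neighbouring periods 1 drop was called, at HH9. The HH6 libraries numbered 2 to 4 held 126, 141 and 163 CPM, while HH6 replicate 1 held 266 CPM. Stage means were then 141 to 176 CPM from 1ss to 6ss and 91.7, 61.9 and 41.9 CPM at 7ss, 8ss and 9ss. The HH9 libraries lay at 31.8 to 118 CPM (median 62.2) and the HH8 libraries at 115 to 182 CPM (median 172), with an overlap of 115 to 118 CPM (-1.31 ± 0.16, adjusted p = 6e-08). The endoderm sum was 51.2 to 62.8 CPM at HH10 and 783 to 1440 CPM at HH5, and 31.8 to 694 CPM at HH9 and 42.1 to 200 CPM at HH8. The highest HH9 sum was in 8ss replicate 2, where FN1 was at 62.9 CPM. HH6 replicate 1, with 266 CPM of FN1, had an endoderm sum of 692 CPM, beside 171 to 257 CPM in the other HH6 libraries. Its surface ectoderm and placode sum was 1620 CPM, beside 1040 to 1130 CPM in them. The mesoderm sum was 151 to 347 CPM at HH5, 301 to 428 CPM at HH6 and 37.4 to 115 CPM at HH10. The part of these tissues in the FN1 level was not tested.

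TNC, tenascin-C, an adhesion-modulating glycoprotein of migrating neural crest, had a transient high. Its libraries held 74.1, 70.5, 115 and 71.5 CPM at 5ss, 188, 182 and 194 CPM at 6ss and 236, 231, 157 and 127 CPM at 7ss, and the stage means were 144, 122 and 85.7 CPM at 8ss, 9ss and 10ss. The 3 libraries of 6ss were above all 4 of 5ss (1.18 ± 0.27, edgeR adjusted p = 0.048), and the call was lost in 24 of 45 fits that left out 1 library, where the change was 1.12 to 1.20, and without the libraries numbered 4 (1.13, adjusted p = 0.12). By period, TNC was called higher at HH8 (50.1 to 194 CPM, median 71.5) than at HH7 (34.0 to 67.4 CPM, median 51.3), at 1.01 ± 0.21 (adjusted p = 0.00072). At HH10 against HH5 it was not (0.73 ± 0.38, adjusted p = 0.18), although the groups of 63.8 to 107 CPM at HH10 and 41.0 to 59.9 CPM at HH5 did not overlap.

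VCAN, versican, a large chondroitin sulfate proteoglycan that restricts neural crest paths, had stage means of 54.7 to 63.2 CPM from HH5 to 5ss and 29.1 to 41.6 CPM from 6ss to 10ss. Its difference at HH9 against HH8 was -0.67 ± 0.15, past the adjusted p (0.00096, edgeR) and short of the fold threshold. SPARC, or osteonectin, a collagen-binding protein, had the narrowest profile of those that passed over the 12 stages (adjusted p = 0.011). Its stage means stayed between 242 CPM at 1ss and 338 CPM at 8ss, and the difference at HH10 against HH5 was 0.05 ± 0.13.

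Among the integrins, ITGB3 had the lowest adjusted p for an increase. This beta subunit pairs with ITGAV to bind vitronectin and fibronectin. It was at 109, 102 and 125 CPM at HH10, against 12.5, 22.2, 18.5 and 14.5 CPM at HH5 (2.73 ± 0.30, edgeR adjusted p = 2.5e-09). At HH8 it was at 48.2 to 136 CPM (median 65.9), against 25.6 to 45.2 CPM (median 34.5) at HH7, without overlap (1.18 ± 0.16, adjusted p = 7.3e-07). The stage means had their maximum at 7ss (154 ± 13.8 CPM, SD, n = 4). Of the single-stage steps, HH6 against HH5 (0.85 ± 0.19, adjusted p = 0.039) and 6ss against 5ss (0.89 ± 0.20, adjusted p = 0.040) were called. Each lost its call in 7 of 45 fits without 1 library, where the first step was 0.73 to 0.92 and the second 0.79 to 0.90. Both also lost it without the libraries numbered 4, at 0.83 (adjusted p = 0.11) and 0.92 (adjusted p = 0.068). In the period comparison of the same HH6 and HH5 libraries its adjusted p was 0.096.

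The alpha partner ITGAV had stage means of 3.03 to 6.92 CPM, passed over the 12 stages (edgeR adjusted p = 0.017) and differed by 0.43 ± 0.28 at HH10 against HH5 (adjusted p = 0.30). The other beta partners of ITGAV ran otherwise than ITGB3. ITGB5 had its highest stage mean at HH6 (15.4 ± 1.29 CPM, SD, n = 4) and its lowest at 8ss (6.14 ± 2.04 CPM, n = 3). ITGB8 was at 3.13 ± 0.925 CPM at HH5 and 0.697 ± 0.366 CPM at 7ss (n = 4 each). Neither was called in a period comparison, and ITGB6 was above 3 reads in only 2 of 45 libraries.

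The laminin receptors ITGA6 and ITGA7 were lower late. ITGA6 was at 12.6, 9.53 and 9.17 CPM at HH10 and 38.4, 30.9, 25.9 and 31.7 CPM at HH5 (-1.60 ± 0.35, edgeR adjusted p = 0.00067). It had first reached its highest stage mean, 49.8 ± 14.2 CPM, at 3ss, and was at 5.69 to 17.7 CPM (median 10.7) at HH9, against 14.2 to 53.5 CPM (median 31.7) at HH8 (-1.45 ± 0.19, adjusted p = 4.4e-07). ITGA7 was low throughout, with 0.313, 0.376 and 0.518 CPM at HH10 and 1.72, 2.31, 1.39 and 3.03 CPM at HH5 (-2.39 ± 0.45, adjusted p = 8.4e-05). ITGA3, a further laminin receptor, did not pass over the 12 stages (adjusted p = 0.22), but passed with a replicate block on the title numbers (0.032).

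ITGA4, which binds fibronectin and VCAM1, had stage means of 30.3 to 55.1 CPM until 8ss and was called lower at the next step. Its libraries were at 69.0, 45.9 and 41.7 CPM at 8ss, 16.6, 26.7, 22.5 and 17.4 CPM at 9ss and 23.3, 16.9 and 23.3 CPM at 10ss. The step at 9ss against 8ss was -1.33 ± 0.25 (edgeR adjusted p = 0.012), the lowest adjusted p of the called steps, and -1.09 without 8ss replicate 1 (adjusted p = 0.071). At HH10 against HH5 the groups did not overlap, with the HH5 libraries at 37.1, 38.7, 35.0 and 40.0 CPM, and the test was not passed (-0.83 ± 0.34, adjusted p = 0.078). ITGA8, a receptor for nephronectin and other RGD proteins, was at 5.57, 1.84 and 1.66 CPM at HH10 and 0.305, 0.174, 0.385 and 0.492 CPM at HH5 (3.13 ± 0.63, adjusted p = 0.00021). Without 10ss replicate 1 its change was 2.34 (adjusted p = 0.010), and at HH8 against HH7 it was 1.19 ± 0.34 (adjusted p = 0.011). ITGA9, a tenascin-C receptor, had its lowest stage mean at 4ss (1.19 CPM) and its highest at 10ss (5.70 CPM), and passed over the 12 stages (adjusted p = 0.00024) but in no period comparison.

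ITGB1, the beta subunit shared by most of these alpha chains, did not pass over the 12 stages (edgeR adjusted p = 0.44). It was at 293, 180 and 130 CPM at HH10 and 201, 221, 227 and 206 CPM at HH5 (-0.09 ± 0.22), and its stage means were all between 159 and 247 CPM. ITGB2, the beta subunit of leukocytes, was called lower at HH9 than at HH8 (0.0369 to 1.80 CPM, median 0.350, against 0.424 to 3.59 CPM, median 1.44), at -1.17 ± 0.41 with an adjusted p of 0.045. The groups overlapped, 16 of 45 fits without 1 library lost the call, and without 5ss replicate 4 the change was -0.94 (adjusted p = 0.12).

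**Figure D5:**
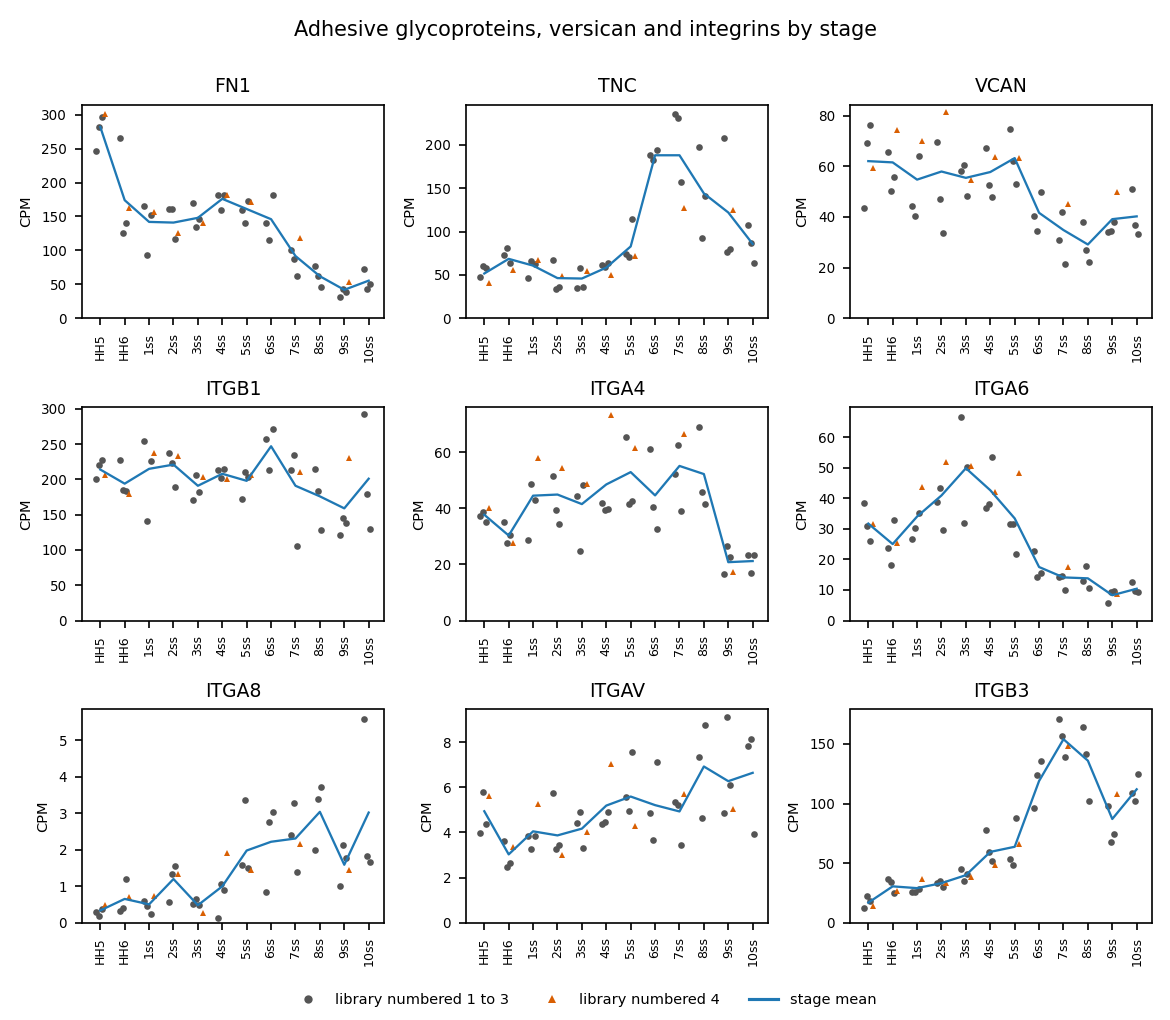
CPM of fibronectin (FN1), tenascin-C (TNC), versican (VCAN) and 6 integrin subunits in each library by stage. Grey circles are libraries numbered 1 to 3, orange triangles libraries numbered 4 and the blue line is the stage mean; FN1 is low from 7ss on and ITGA6 from 6ss on, ITGA4 is low at 9ss and 10ss, TNC peaks at 6ss and 7ss and ITGB3 at 7ss, and ITGB1 stays between 159 and 247 CPM on average.

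Across the 11 single-stage steps, 5 of 638 tests of matrix genes were called, 4 higher and 1 lower, and these were the steps of ITGB3, COL5A2, TNC and ITGA4 given above. Over all genes 0.101% of tests were called higher and 0.0977% lower. At an unadjusted edgeR p below 0.05, 34 of the 638 were higher and 36 lower. The share of all genes at that unadjusted level was not computed, so these 2 counts cannot be set against the called shares. Of the remaining matrix genes, 10 had a mean below 1 CPM, among them COL25A1, COL28A1, ITGB6 and LAMB3, which were above 3 reads in 21, 7, 2 and 16 of the 45 libraries. COL8A1, a short-chain collagen, passed over the 12 stages (adjusted p = 0.007, edgeR), with its lowest stage mean at 2ss (0.0606 CPM) and its highest at 10ss (1.20 CPM). COL12A1, a collagen of the fibril surface, had its highest mean at 10ss (2.38 ± 0.875 CPM, SD, n = 3), with adjusted p of 0.043 over the stages and 0.052 at HH10 against HH5.

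Genes that process, accompany or read these proteins were counted in 4 further lists. Of all genes tested, 7.2% were called higher and 9.8% lower at HH10 against HH5. The shares were 4.5% and 2.83% at HH8 against HH7, and 3.5% and 3.57% at HH9 against HH8. The counts of each list are descriptions to be read beside the shares of the same comparison. Of 18 collagen-processing enzymes and chaperones, 5 were called higher and 2 lower at HH10 against HH5. P4HA2, a prolyl hydroxylase that stabilizes collagen chains, was at 33.0 ± 11.9 CPM at HH10 (n = 3) and 12.4 ± 2.18 CPM at HH5 (SD, n = 4; 1.41 ± 0.28, edgeR adjusted p = 0.00016). P3H2, a prolyl 3-hydroxylase, was called lower (-2.23 ± 0.62, adjusted p = 0.0069). LOXL3, a lysyl oxidase that cross-links collagen (1.14 ± 0.39, adjusted p = 0.028), and CRTAP, which acts with a prolyl 3-hydroxylase (1.09 ± 0.33, adjusted p = 0.012), were called higher. In the same list PLOD1, a lysyl hydroxylase, was the single gene called at HH8 against HH7 (0.98 ± 0.15, adjusted p = 4e-06), and 2 were higher and 1 lower at HH9 against HH8.

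Of 35 other matrix proteins, 7 were higher and 5 lower at HH10 against HH5 (7.2% and 9.8% of all genes). At HH8 against HH7 they were 3 and 1 (4.5% and 2.83%), and at HH9 against HH8 6 and 2 (3.5% and 3.57%). DCN, decorin, a small proteoglycan on collagen fibrils, was at 10.0 ± 3.33 CPM at HH10 (n = 3) and 0.107 ± 0.0643 CPM at HH5 (SD, n = 4; 6.47 ± 0.97, edgeR adjusted p = 1.9e-06), where a few reads per library make the fitted change depend on the prior count. MATN1, a matrilin of cartilage, was at 55.3 ± 2.58 CPM and 6.18 ± 1.00 CPM in these groups (3.16 ± 0.40, adjusted p = 4.5e-08). LUM, lumican, was at 104 ± 12.2 CPM at HH10 and 15.7 ± 2.84 CPM at HH5 (2.73 ± 0.52, adjusted p = 8.4e-05). EMILIN2, an elastin-associated glycoprotein, was at 2.07 ± 0.616 CPM at HH10 and 22.6 ± 3.62 CPM at HH5 (-3.43 ± 0.38, adjusted p = 2.6e-09).

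Of 21 genes for hyaluronan and proteoglycans, 5 were higher and 4 lower at HH10 against HH5. CD44, the main hyaluronan receptor (3.55 ± 0.88, edgeR adjusted p = 0.0025), and the link protein gene HAPLN2 (3.81 ± 0.75, adjusted p = 0.00014) were called higher. HAPLN1, another link protein (-1.98 ± 0.30, adjusted p = 2.4e-06), and the hyaluronan synthase HAS3 (-1.90 ± 0.54, adjusted p = 0.0076) were called lower. At HH8 against HH7, 2 were higher and 1 lower (4.5% and 2.83% of all genes), and at HH9 against HH8, 3 and 1 (3.5% and 3.57%). The lower gene at HH8 was HAS2, the main hyaluronan synthase of the embryo, at 8.89 ± 3.23 CPM at HH8 (n = 11) and 36.5 ± 15.5 CPM at HH7 (SD, n = 12; -2.04 ± 0.23, adjusted p = 9.3e-09). Of 21 integrin linkers and other adhesion receptors, 2 were higher and 5 lower at HH10 against HH5, beside the same 7.2% and 9.8% of all genes. DAG1, dystroglycan, a laminin receptor outside the integrin family, was at 7.47 ± 0.861 CPM at HH10 (n = 3) and 53.6 ± 13.7 CPM at HH5 (SD, n = 4; -2.84 ± 0.33, adjusted p = 6.1e-09), while the collagen receptor DDR1 (1.02 ± 0.16, adjusted p = 4.8e-06) and the focal adhesion protein TNS3 (1.1 ± 0.26, adjusted p = 0.0015) were called higher. FERMT1, kindlin-1, which activates integrins, was called lower (-0.91 ± 0.17, adjusted p = 0.00011).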

How the data were processed

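The authors mapped paired reads of an unstranded kit with STAR (version 2.7.2a, build GRCg6a, as named in the submitters' processing notes; the counter is not given in the sources used here) and deposited raw counts per gene. They also deposited a signal table of TMM-scaled CPM, from which the recomputed CPM differ by at most 5.09e-11. Reads of overlapping or antisense genes cannot be told apart without strand. Genes above 5 reads in at least 1 library were tested (18525) with the quasi-likelihood test of edgeR 4.0.16 (TMM, R 4.3.3) and Benjamini-Hochberg adjustment, over all genes and, for single-stage steps, over all genes and the 11 steps. Each SE of a fold change is the absolute log2 fold change divided by the square root of the F statistic of its edgeR test. DESeq2 1.42.0 was an alternative. The scripts were tested on simulated data.

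Depth limits precision for the 10 matrix genes below 1 CPM. Replicates are pools of embryos, and 3 libraries at 6ss, 8ss and 10ss limit those groups. Stages came from the labels, whose replicate numbers differ between titles and descriptions at 10ss. Alternatives were size factors, filters, a replicate term, other groupings and leaving out libraries. Every matrix gene could be named. Full statistics went to the called genes whose mean in the compared groups reached 1 CPM, and in the other lists to at most 4 called genes of the largest fold. The 58 genes were set by symbol and not by their values. Even so, genes and lists were chosen with earlier results of these data known. Symbols came from the files for 12245 genes and from the RefSeq table (GRCg7b, used for names and neighbours) for 1157, and 5123 had none. Sequences and transcript lengths were not used here.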

Additional observations from a re-analysis of the deposited data

Results flagged for a closer look

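In groups of 4 libraries, 1 value stood far from the others (Dixon's test, 95% level) in 21 of 288 groups over 32 matrix genes, or 7.29%, where chance gives about 1 in 20. HH6 replicate 1 was the high value for LAMA4 (11.1 CPM, the others 1.73 to 2.5) and COL9A1 (22.7 CPM, the others 7.53 to 9.22). It was also the high value for ITGB1 (227 CPM, the others 179 to 185). Its marker sums for endoderm, for vessel, and for surface ectoderm and placode were the highest at HH6. The library numbered 4 was apart at 5ss for COL5A1 (76.3 CPM, the others 288 to 313), LAMC1 (57.1 CPM, the others 30.9 to 34.9) and ITGB2 (3.59 CPM, the others 0.645 to 0.904), at HH5 for COL5A1 (54.8 CPM, the others 191 to 201), at 4ss for ITGA4 (73.2 CPM, the others 39.3 to 42.0) and at 7ss for COL18A1 (12.9 CPM, the others 9.75 to 10.2). At 7ss replicate 3 was low for AGRN (84.3 CPM, the others 133 to 140) and LAMB1 (151 CPM, the others 226 to 229). HH6 replicate 3 was high for COL13A1 (12.1 CPM, the others 8.79 to 8.98) and low for HSPG2 (3.59 CPM, the others 5.69 to 6.03). At 1ss replicate 2 was low for COL3A1 (2.04 CPM, the others 4.51 to 4.61) and COL6A1 (0.667 CPM, the others 2.03 to 2.17), and replicate 1 for COL5A2 (14.1 CPM, the others 21.0 to 22.0). The remaining values were COL4A1 at 9ss replicate 1 (13.9 CPM, the others 21.3 to 22.4), FN1 at 4ss replicate 2 (160 CPM, the others all 181), ITGA4 at 3ss replicate 2 (24.7 CPM, the others 44.5 to 48.5), ITGA8 at 5ss replicate 2 (3.37 CPM, the others 1.45 to 1.59) and TNC at 5ss replicate 3 (115 CPM, the others 70.5 to 74.1). Their causes were not tested.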

How the results depend on the processing

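No result changed direction under the alternatives run. Of the 42 named tests, all kept their call with RLE size factors and in DESeq2, 41 with filterByExpr or without a filter, 37 without the libraries numbered 4 and 36 when HH6 replicate 1 was left out as well (this last setting was chosen after seeing the data), and 36 of the 37 period tests kept it with the 12 stages as groups or with only the compared periods in the fit. ITGB2 at HH9 against HH8 was the call lost without a filter (adjusted p = 0.055) and with only the compared periods in the fit (0.12). In the 45 fits that each left out 1 library, 31 of the 37 period tests kept their call and 6 lost it at least once, as given for each gene. The count over the 12 stages was then 34 to 37 matrix genes, 10 to 12 at HH8 against HH7, 7 to 10 at HH9 against HH8 and 17 to 20 at HH10 against HH5. For these ranges the counts over all genes are not given here. The count was 0 to 1 in each of HH6 against HH5, HH7 against HH6 and HH10 against HH9. Of the single-stage steps 1 to 6 were called, with 1 step left without HH5 replicate 3, HH6 replicate 2 or HH6 replicate 4. Over all genes these last fits called 271, 184 and 211 single-stage tests, beside 405 with all libraries. With the 12 stages as groups, 1 matrix gene was called at HH6 against HH5 (ITGB3) and 2 at HH10 against HH9 (COL1A1 higher and ITGA4 lower). Over all genes that fit called 356 and 144 in these comparisons. Without the libraries numbered 4, 2 steps were called, and when HH6 replicate 1 was also left out 1 gene was called lower at HH6 (COL5A1). Over all genes the first fit called 293 steps, and the second 153 genes at HH6 against HH5. The cause of these shifts was not tested.

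Over all genes, 240 were called at HH6 against HH5, 54 without the libraries numbered 4 and 387 in DESeq2, and 189 at HH7 against HH6, 64 without the libraries numbered 4, 0 when HH6 replicate 1 was left out too and 347 with the 12 stages as groups. At HH10 against HH9, 61 were called, 144 with the 12 stages as groups, 129 in DESeq2 and 0 with only the compared periods in the fit. Of the single-stage tests 405 were called, 1371 in DESeq2. Same-numbered libraries of different stages correlated between -0.322 and 0.526 in their deviations (median 0.0424), and 87 of 234 pairs were over 0.1. Pairs of different numbers had a median of -0.0182, with 136 of 693 over 0.1. Of the 45 libraries, 17 correlated best with their own number. The numbers were not used as pairs in the main fits. The libraries numbered 4 did resemble each other, with 29 of 36 pairs over 0.1 and a median of 0.34, against medians of 0.0361, 0.0239 and 0.00575 for numbers 1, 2 and 3. With a replicate block built on the title numbers, 40 matrix genes were called over the 12 stages, which added COL9A2 (edgeR adjusted p = 0.00021), NID1 (0.02) and ITGA3 (0.032). Over all genes 8776 were called with this block, beside 8088 without it. The same block called 10, 9 and 19 at HH8 against HH7, HH9 against HH8 and HH10 against HH5 (COL12A1 was added), none in the other period comparisons and 6 steps (COL9A1 at 7ss was added), and none of the 42 named calls was lost. Over all genes the block called 939 single-stage tests. At HH8 against HH7, HH9 against HH8 and HH10 against HH5 it called 1277, 1311 and 3251 of all genes, beside 1359, 1309 and 3149 without it. At HH10 against HH5, 18 matrix genes were called. A replicate block on the description numbers called 20 (COL5A1 higher and HSPG2 lower were added) and DESeq2 21 (COL12A1, COL1A1 and HSPG2). The 12 stages as groups called 20 (COL1A1 and ITGA4), and the fit of the compared periods alone 23 (COL12A1, HSPG2, ITGA4, ITGA9 and ITGB2). Over all genes these fits called 3250, 3362, 3287 and 3561, beside 3149 in the main fit.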
